A study of Mus musculus with 12 samples.

Results

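Gcm1 is the mouse gene for glial cells missing homolog 1, a transcription factor, and it was taken as the gene named Gcm1 in the deposited table of gene expression, 1 gene of 16383 in the table and 1 of the 5048 with enough counts to be tested. The gene was selected on its measured expression in these same 4 groups of libraries, so its levels and differences below are a description and carry no test. Total RNA of mouse kidney was sequenced in 12 libraries, 3 in each of 4 groups: KO I/R, WT I/R, KO sham and WT sham. I/R stands for ischemia-reperfusion injury, here 30 minutes without blood flow at 37 °C in the left kidney together with removal of the other kidney. The sham animals had the same operation without the ischemia, so loss of the right kidney is shared by all 4 groups. KO libraries are labelled as Lrrk2 knockout and WT libraries as wild type. Lrrk2 encodes leucine-rich repeat kinase 2, a large kinase and GTPase that is abundant in mouse kidney. The sources used here do not give the time between injury and sampling, the age, sex or strain of the mice, or which part of Lrrk2 was deleted. Nor do the labels say that each library came from its own animal, so the adjusted p-values below measure only the spread between these libraries, which may be technical.

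GCM1 binds DNA through a zinc-containing domain found only in the small GCM family, and it is known for its role in the placenta. There it drives trophoblast cells to fuse into syncytiotrophoblast and is needed for branching of the mouse labyrinth. Outside the placenta, mouse Gcm1 is known to be transcribed in kidney and thymus. In trophoblast cells, cAMP signalling and frizzled 5 with beta-catenin raise its expression, and acetylation, SUMO conjugation and ubiquitin ligases act on the protein.

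The table places Gcm1 (ENSMUSG00000023333) at chr9:78051924-78065624 on the plus strand, a locus equal to the one in GENCODE release M21 on GRCm38. That annotation gives Gcm1 1 transcript of 6 exons and 2068 bases, of which 1308 code for 436 residues. Exon 1 is non-coding, translation starts in exon 2, and exon 6, the longest with 1276 bases, holds the stop codon and the 3′ UTR. The sequence just before the start is shown because the background above names factors that could read it, and because its letters can be compared with all other promoters. The 216 bases at chr9:78051708-78051923 of GRCm38.p6, plus strand, lie before the start of Gcm1 in both annotations and begin 250 bases before the RefSeq start (RefSeq sequence).
Gcm1 upstream window: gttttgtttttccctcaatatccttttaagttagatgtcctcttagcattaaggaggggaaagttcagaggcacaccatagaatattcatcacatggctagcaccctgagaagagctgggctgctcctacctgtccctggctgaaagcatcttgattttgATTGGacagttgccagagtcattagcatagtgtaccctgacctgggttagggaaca
Capitals mark the only match among the motifs searched on both strands, a CCAAT box read on the other strand, which starts at base 161 of the window. A CCAAT match of this kind was present in 30.5% of the 32851 windows of the same length before other genes. No match was found in the Gcm1 window for the octamers bound by GCM proteins (ATGCGGGT, ATGCGGGC, ATACGGGT or ATACGGGC, in 0.584% of windows), for the cAMP response element TGACGTCA (1.11%), for the AP-1 site TGAGTCA (3.93%), for TATAAA (9.8%) or for the TCF core CTTTG (44.4%). The window was 45.4% G or C, against a median of 51.9% over all windows, and held 0 CpG sites, against a median of 5. These matches describe letters in this window and say nothing of binding.

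Counts per library in the table summed to between 4678827 and 5456261, which is 27.4% to 31.6% of the fragments per library that the deposited FPKM values imply. The table thus holds a part of each library only. Percentiles, ranks and counts of genes below cover only the genes in it, of which 6440 are protein-coding. Umod and Aqp2, markers of the thick ascending limb and of the collecting duct, were at 5414 to 11276 and 529 to 2482 CPM (the count scaled to the library's total in the table and by TMM factors) in all 12 libraries, as kidney tissue has them. Several libraries stand apart. KO sham 3 had 24.7% of its counts in mitochondrial genes, against 5.64% to 10.7% in the other libraries. Adrenal steroid-making enzymes had reads there, with 71 counts of Cyp11b1 and 41 of Cyp11a1, against 0 and at most 4 in each other library, and Star, which brings cholesterol into mitochondria, had 115 counts against 34 to 88. KO sham 1 held 5 counts of Y-chromosome genes, against 30 to 157 elsewhere, and 230 CPM of Havcr1 and 124 CPM of Lcn2, both markers of tubule injury, against at most 21.8 CPM of either in the other sham libraries. In KO I/R 2 the count and FPKM columns disagree: 936 genes have an FPKM above 0 and no count, and 533 the reverse, with 0 such genes in the other 11 libraries. Gcm1 is at 0 in KO I/R 2 in both columns. Lrrk2 itself did not separate the genotypes, with 401, 235 and 793 counts in KO I/R libraries, 320, 381 and 464 in WT I/R libraries, 598, 1651 and 207 in KO sham libraries and 2053, 1284 and 1839 in WT sham libraries. KO and WT are therefore used below as the labels give them, and every direction between genotypes rests on the labels alone.

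Gcm1 was transcribed in sham kidney and nearly or wholly undetected after ischemia-reperfusion, with 5 reads in the 6 I/R libraries together and 159 in the 6 sham libraries. After I/R, Gcm1 had 2, 0 and 3 counts in the KO libraries and 0, 0 and 0 in the WT libraries. In sham kidney, Gcm1 had 51, 26 and 5 counts in the KO libraries and 13, 30 and 34 in the WT libraries. Every sham library thus held more Gcm1 reads than every I/R library, with KO sham 3 the lowest of the sham libraries and KO sham 1 the highest.

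**Figure D1:**
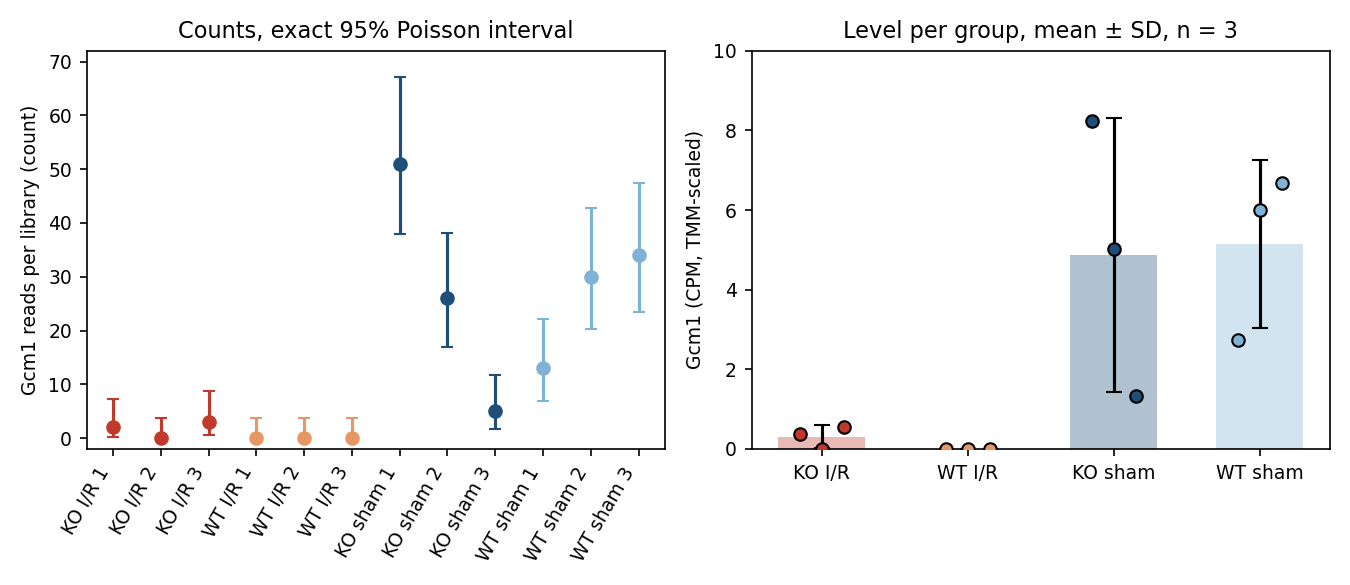
Gcm1 in each library: left, the count (y axis, reads) with its exact 95% Poisson interval, which covers counting error only; right, the TMM-scaled CPM of each library (points) with the group mean (bar) and SD (error bar), n = 3 per group. The I/R libraries lie between 0 and 3 counts and the sham libraries between 5 and 51.

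The exact 95% Poisson interval of the Gcm1 count, which covers counting error only, was 0.242 to 7.22 counts in KO I/R 1 and 0.619 to 8.77 in KO I/R 3, and a library with 0 counts allows up to 3.69. It was 37.97 to 67.1 counts in KO sham 1, 17.0 to 38.1 in KO sham 2 and 1.62 to 11.7 in KO sham 3. In the WT sham libraries it was 6.92 to 22.2, 20.2 to 42.8 and 23.5 to 47.5 counts. The interval of KO sham 3 does not meet those of KO sham 1 and KO sham 2 and overlaps those of KO I/R 1 and KO I/R 3. These are intervals of counts before scaling to depth.

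Scaled to depth, Gcm1 was at 0.370, 0 and 0.554 CPM in KO I/R libraries, at 0 in each WT I/R library, at 8.23, 5.03 and 1.34 CPM in KO sham libraries and at 2.74, 6.01 and 6.69 CPM in WT sham libraries. As group means this is 0.308 ± 0.282 CPM in KO I/R, 0 in WT I/R, 4.87 ± 3.45 CPM in KO sham and 5.15 ± 2.11 CPM in WT sham (SD, n = 3 each). The sham groups had the highest levels, then KO I/R, then WT I/R. The sham groups differ by less than their SD and have no set order, since KO sham lies below WT sham in mean CPM but above it in summed counts (82 in KO sham and 77 in WT sham) and in mean FPKM (0.774 in KO sham and 0.753 in WT sham). The intervals of the summed counts of KO I/R and WT I/R overlap (5 counts, 1.62 to 11.7, in KO I/R and 0 counts, 0 to 3.69, in WT I/R). Overlap of intervals is no test of a difference, so whether these groups differ beyond counting error was not tested.

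Per length, the deposited FPKM of Gcm1 was 0.0583, 0 and 0.0897 in KO I/R libraries, 0 in WT I/R libraries, 1.40, 0.779 and 0.139 in KO sham libraries and 0.379, 0.842 and 1.04 in WT sham libraries. Among protein-coding genes of the table with any FPKM in the same library, Gcm1 stood at the 9.26th and 10.9th percentile in KO I/R 1 and KO I/R 3, where it was detected after I/R. It stood at the 39.7th, 32.2nd and 17.3rd percentile in the KO sham libraries and at the 24.7th, 35.4th and 33.6th in the WT sham libraries. Gcm1 was thus a gene of low to middling level in sham kidney on this scale and near the bottom after I/R.

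Labelled KO kidney held 16.3-fold less Gcm1 in I/R than in sham, with an exact counting interval of the ratio of 6.70 to 51.4, from 5 counts in KO I/R and 82 in KO sham (exact 95% interval 65.2 to 102). In WT kidney, Gcm1 was at least 28.9-fold lower in I/R than in sham, taking the floor of 3 counts over the 3 WT I/R libraries against 77 counts in WT sham (60.8 to 96.2). This bound leaves out the counting error of the sham reads, and the lower limit of the exact 95% counting interval of the ratio is 23.0-fold. The fitted log2 difference of edgeR's model of all genes was -3.83 ± 0.90 (SE) between KO I/R and KO sham. It was -7.73 ± 1.31 between WT I/R and WT sham. Both this value and its SE depend on how the model treats 3 libraries at 0, so neither gives a bound or a precision. Over all tested genes, I/R and sham libraries did not overlap, with I/R lower, for 17.8% of genes in KO and 27.6% in WT, and with I/R higher for 17.6% in KO and 27.6% in WT. Gcm1 is among those lower in both, and nothing is read from this, since it was selected on the same values. In bulk tissue, fewer Gcm1-expressing cells and less Gcm1 RNA per cell cannot be told apart.

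The KO difference of Gcm1 rests on 5 reads after I/R and moved with single libraries. Without KO sham 1, the library with the most Gcm1 reads and with raised injury markers, the log2 difference was -3.22, and without KO sham 3, the one rich in mitochondrial counts, it was -4.24. Leaving out both gave -3.83. Without KO I/R 3, which holds 3 of the 5 I/R reads, it was -4.44, and without KO I/R 2 it was -3.35. For WT kidney the same omissions of single libraries kept the fitted difference of Gcm1 between -8.04 and -7.50. KO sham 1 also held 5 counts of Y-chromosome genes, against 30 to 157 elsewhere, and the sex of the animals is not given. Whether injury or sex in KO sham 1, or RNA quality or adrenal tissue in KO sham 3, set their Gcm1 counts was not tested.

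Between genotypes, no difference of Gcm1 was tested, and none is read from these counts. In sham kidney the log2 difference of KO minus WT was -0.06 ± 0.69 (SE), and single libraries set its size and direction. It was -0.66 without KO sham 1 and -0.36 without WT sham 1, but 0.36 without KO sham 3, 0.17 without WT sham 3 and 0.07 without WT sham 2. After I/R, Gcm1 reads were present in 2 of 3 KO libraries and in 0 of 3 WT libraries, a difference that rests on 5 reads and was not tested. The fitted value there, 3.85 ± 1.69, and the fitted interaction of genotype and I/R, 3.91 ± 1.80, both rest on the 3 WT I/R libraries at 0 and on the model's treatment of them. Over all tested genes, 0% were called at an adjusted p under 0.05 by edgeR's quasi-likelihood test in either genotype comparison or in the interaction. At an unadjusted p under 0.05, 285 genes differed between KO sham and WT sham, 140 between the I/R groups and 265 in the interaction, and DESeq2 called 28, 2 and 16 in the same comparisons. Of the 68 tested genes in the lists described below, edgeR called 0 in each of these, while 6, 6 and 7 had an unadjusted p under 0.05. DESeq2 called 1 of the 68, Slc34a3 in the interaction.

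Genes at 0 in all WT I/R libraries, as Gcm1 was, were sought among genes with at least its lowest count in WT sham. This cut comes from the Gcm1 counts and sets no upper limit on abundance. Nothing is read from the small number found, since Gcm1 was selected on the same values. Of 4223 genes with at least 13 counts in each WT sham library, 13 being the lowest Gcm1 count there, 4 had 0 counts in all 3 WT I/R libraries. Gcm1 was the only protein-coding gene among them. The others were 4930533I22Rik, annotated as an antisense RNA, Gm23332, a miscellaneous small RNA, and Gm33472, an intergenic RNA. 4930533I22Rik was also at 0 in each KO I/R library, with 28, 55 and 15 counts in KO sham and 23, 34 and 65 in WT sham. Gm23332 and Gm33472, like Gcm1, had a few reads in KO I/R, 0, 3 and 0 for the one and 4, 0 and 0 for the other.

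The genes whose pattern was most like that of Gcm1 were ranked by the Pearson correlation of log2 CPM over the 12 libraries among 4224 tested genes with a name. The first 8 were Tenm4 (r = 0.988), Osbpl1a (0.978), Pcsk6 (0.973), Sema4g (0.964), Tmem64 (0.964), Pkhd1 (0.962), Lrrc56 (0.959) and Ceacam2 (0.958). Tenm4 encodes a teneurin, a large transmembrane adhesion protein, Pcsk6 a proprotein convertase, and Pkhd1 fibrocystin, the protein mutated in recessive polycystic kidney disease. Tenm4 was at 2.78, 1.68 and 3.14 CPM in KO I/R libraries, 1.82, 1.28 and 1.39 in WT I/R libraries, 17.1, 20.5 and 6.44 in KO sham libraries and 10.3, 14.4 and 22.2 in WT sham libraries. Like Gcm1, Tenm4 was lowest among the sham libraries in KO sham 3 and lower in every I/R library than in any sham library, but unlike Gcm1 it was detected in each library. Most opposite to Gcm1 were Snhg3 (r = -0.975), a host transcript of small nucleolar RNAs, Morrbid (-0.966), a long non-coding RNA known from myeloid cells, Fkbp10 (-0.959), a chaperone of collagen, and Nucb2 (-0.956), the precursor of nesfatin.

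**Figure D2:**
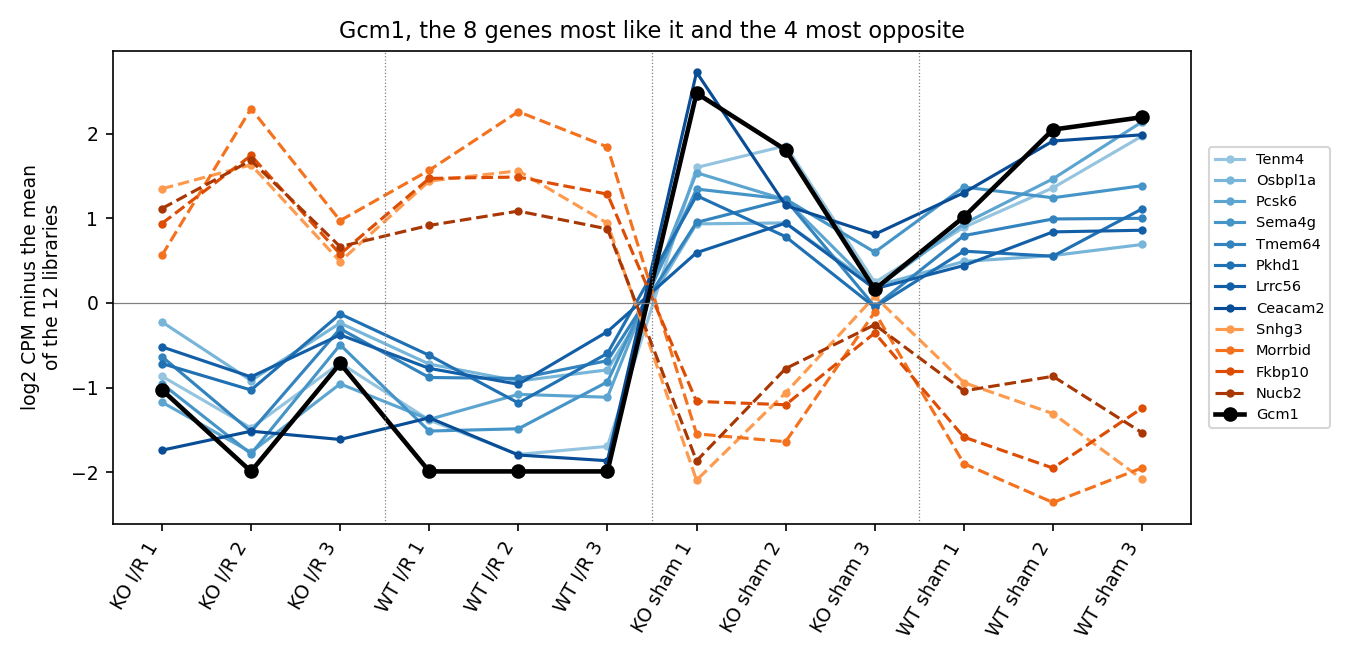
Log2 CPM minus the mean over the 12 libraries (y axis) for Gcm1 (black), the 8 genes of highest Pearson correlation with it (blue) and the 4 of lowest (orange, dashed), by library (x axis; lines only join the points of a gene). Gcm1 values at the bottom are libraries with 0 counts, placed there by the prior count of 2.

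These correlations mainly follow the split into I/R and sham libraries, and the points share library depth and scaling. Over all ranked genes, 111 had r above 0.9 with Gcm1 and 102 had r below -0.9, with a median of 0.0872. Within the 6 sham libraries alone, r of the 8 genes with Gcm1 was 0.791 for Sema4g to 0.908 for Pcsk6, and Spearman's rho 0.486 to 0.943. Without KO sham 3 and WT sham 1, the sham libraries farthest from the median of Gcm1, the r over the remaining 4 ran from -0.93 for Lrrc56 and -0.86 for Tmem64 to 0.98 for Ceacam2, and it was 0.45 or less for Tenm4, Osbpl1a and Pcsk6 as well, so for these 5 genes the likeness within sham rests on those libraries. By Spearman's rho over the 12 libraries, 1 of the 8, Tenm4, remained among the 8 most like Gcm1. With a prior count of 0.5 in the log2 CPM, 6 of the 8 remained.

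Likeness within groups, measured as the correlation of deviations from the group means, put other genes first: BC055324 (0.977), Fv1 (0.963), Atp4a (0.962), Rybp (0.960), Cep68 (0.954) and Rgs9bp (0.952). Atp4a and Cep68 also followed Gcm1 over all libraries, with r of 0.956 and 0.958. BC055324, Rybp and Rgs9bp did not, with r of 0.268, 0.176 and 0.288. Like Gcm1, the 6 genes were lowest among the KO sham libraries in KO sham 3, the library with the most mitochondrial counts, and lowest among the KO I/R libraries in KO I/R 2, the library with mismatched columns.

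Of the genes that GCM1 acts on or that accompany it in the placenta, few were in the deposited table. The list holds 24 genes, of which 6 were in the table and 5 could be tested, while 23.5% of all tested genes were called in KO I/R against KO sham and 20.9% in WT I/R against WT sham (edgeR, adjusted p under 0.05). In labelled KO kidney 1 of the 5 rose, 1 fell and 3 were not called, and the counts in WT kidney were the same, with different genes rising. Lifr, a receptor chain for leukemia inhibitory factor, was lower after I/R by the test in both, at a log2 difference of -1.34 ± 0.44 in KO (edgeR adjusted p = 0.0472) and -1.48 ± 0.45 in WT (edgeR adjusted p = 0.0345). Rack1, a scaffold protein of ribosomes and kinases, was higher in KO I/R (1.31 ± 0.32, edgeR adjusted p = 0.0122), with 0.93 ± 0.32 in WT (edgeR adjusted p = 0.0562). Slc16a3, a lactate transporter, was higher in WT I/R (1.39 ± 0.45, edgeR adjusted p = 0.0472), with 1.24 ± 0.45 in KO (edgeR adjusted p = 0.0682). The median of the 5 log2 differences was -0.25 in KO and 0.47 in WT, against -0.08 and -0.04 over all tested genes. The log2 differences of these 5 genes were smaller in size than those of Gcm1. Nothing is read from this, since Gcm1 was selected on its values. The Lifr call was lost when any 1 of 9 libraries was left out in KO (edgeR adjusted p 0.0556 to 0.148; all but WT I/R 1, KO sham 3 and WT sham 2) and of 5 in WT (0.0537 to 0.134; each WT I/R library, WT sham 1 and WT sham 3). Lifr also missed the threshold in both comparisons with table totals, limma, the replicate block and whole-library totals, and in KO with only the KO groups or without both KO sham 1 and KO sham 3 (adjusted p 0.0549 to 0.155 in KO and 0.0618 to 0.121 in WT over these settings). The Slc16a3 call was lost when any 1 of 7 libraries was left out (0.0542 to 0.150; KO I/R 1, each WT I/R library, KO sham 1, WT sham 1 and WT sham 2), while Rack1 kept its KO call whichever single library was left out and lost it when only the KO groups were fitted (0.102).

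The genes of pathways that act on GCM1, from cAMP and Wnt signalling to its modifying enzymes and partner factors, were looked at next. Of 40 such genes 13 were tested, and in KO I/R 1 rose, 2 fell and 10 were not called, while in WT I/R 0 rose, 3 fell and 10 were not called. These shares lie near the 23.5% of all tested genes called in KO and the 20.9% called in WT, so the counts are no result about these genes as a group. Dll1, a Notch ligand, was lower in both, at -1.14 ± 0.36 in KO (edgeR adjusted p = 0.0370) and -1.21 ± 0.36 in WT (edgeR adjusted p = 0.0313). Crebbp, the acetyltransferase CBP, was lower in KO (-0.82 ± 0.25, edgeR adjusted p = 0.0325) and Rap1b, a small GTPase downstream of cAMP, was higher there (0.85 ± 0.28, edgeR adjusted p = 0.0469). In WT, the Wnt co-receptor gene Lrp6 (-1.40 ± 0.33, edgeR adjusted p = 0.0113) and the SUMO ligase gene Pias1 (-0.65 ± 0.18, edgeR adjusted p = 0.0248) were lower. Crebbp, Rap1b, Lrp6 and Pias1 moved the same way in the other genotype without a call. Crebbp was at -0.48 ± 0.25 and Rap1b at 0.37 ± 0.28 in WT (edgeR adjusted p = 0.181 and 0.367). Lrp6 was at -0.92 ± 0.32 and Pias1 at -0.39 ± 0.18 in KO (edgeR adjusted p = 0.0566 and 0.130). The frizzled receptor gene Fzd5 and the protein kinase A gene Prkaca, the receptor and the kinase of the pathways known to raise Gcm1 in trophoblast, were not called, with log2 differences of -0.62 and 0.17 in KO and -0.32 and 0.12 in WT. The median over the 13 was -0.32 in KO and -0.33 in WT. These calls hung on single libraries too: the count of called genes was 0 or 1 of 13 when any 1 of 10 libraries was left out in KO (all but KO I/R 3 and KO sham 3) and of 5 in WT (each WT I/R library, WT sham 1 and WT sham 3). Rap1b lost its call without any library other than KO I/R 2 (edgeR adjusted p 0.0612 to 0.138).

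Markers of the proximal tubule fell in the same comparisons in which Gcm1 was lower. Of 25 markers of the S3 segment, the last stretch of the proximal tubule, 10 were tested. In KO I/R 6 of them fell, 0 rose and 4 were not called, and in WT I/R 9 fell, 0 rose and 1 was not called, where 11.5% and 10.7% of all tested genes were called lower. Their median log2 difference was -1.72 in KO and -3.85 in WT, beside -3.83 for Gcm1 in KO. The lactate and butyrate transporter gene Slc5a8 was at 45.9, 46.9 and 92.3 CPM in KO I/R libraries, 18.2, 32.0 and 48.8 in WT I/R libraries, 322, 857 and 371 in KO sham libraries and 915, 597 and 810 in WT sham libraries. Unlike Gcm1, it kept a level of at least 18.2 CPM in each I/R library, and the groups did not overlap. Its log2 difference was -3.06 ± 0.48 in KO (edgeR adjusted p = 0.00157) and -4.55 ± 0.51 in WT (edgeR adjusted p = 0.000294). Aadat, a lysine-degrading enzyme, fell too, with log2 differences of -3.71 ± 0.60 in KO and -3.89 ± 0.61 in WT (edgeR adjusted p = 0.00187 and 0.00143). Other S3 genes called lower included Slc7a12 in KO (-8.65 ± 1.87), where KO sham 1 alone had 244 CPM and the value was -5.68 without it and -11.83 without KO I/R 1, Acsm3 in WT (-4.23 ± 1.33), and Serpina1f (-2.05 ± 0.68 in KO, -5.07 ± 0.78 in WT) and Slc22a30 (-2.35 ± 0.70 in KO, -3.80 ± 0.75 in WT) in both. The KO count of 6 was 3 without KO I/R 1 and 3 without KO sham 2, and Serpina1f lost its KO call when any 1 of 10 libraries was left out (edgeR adjusted p 0.0606 to 0.117). Without KO I/R 2 or KO sham 3 that call was kept, and without KO I/R 2 the value was -3.23 (-3.60 with the reads of that library recovered from its FPKM). Napsa, not called in KO (-0.94 ± 0.49, edgeR adjusted p = 0.179), also hung on KO I/R 2, the library with mismatched columns. It was called at -1.82 without that library (edgeR adjusted p = 0.00898) and at -1.80 with its reads recovered (edgeR adjusted p = 0.00133). Slc22a30 lost its KO call without KO I/R 1, KO I/R 2, KO sham 2 or KO sham 3 (0.0591 to 0.107), and Aadat was at -2.80 in KO without KO sham 1, with its call kept. Acsm3 lost its WT call without any 1 of the 6 WT libraries or KO I/R 1 (0.0538 to 0.137). In KO, Acsm3 was not called (-1.39 ± 1.18, edgeR adjusted p = 0.415), and its value was 1.37 without KO sham 2. In KO sham 1, both Acsm3 and Slc22a30 lay below every KO I/R library. Acsm3 was at 4.03 CPM there, against 139 to 408 in KO I/R, and Slc22a30 at 47.4 CPM, against 64.5 to 114.

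The summed level of the S3 markers was 7851 to 12795 CPM in KO I/R, 4034 to 7793 in WT I/R, 20780 to 28478 in KO sham and 26412 to 33353 in WT sham, and these sums did not overlap between I/R and sham. The highest KO I/R sum is that of KO I/R 2, where Napsa alone had 7863 CPM, against 1818 and 2629 in KO I/R 1 and KO I/R 3. Markers of the earlier S1 and S2 segments fell likewise, 4 of 6 tested out of a list of 24 in each comparison, with a median log2 difference of -3.09 in KO and -2.49 in WT: Aqp1, G6pc, Gatm and Slc34a3. Beside this list and the cell type markers below, 11.5% of all tested genes were called lower in KO and 10.7% in WT. Aqp1, a water channel, stood 12th among 4224 genes in likeness to Gcm1 (r = 0.954), and its log2 difference was -2.51 ± 0.33 in KO and -3.38 ± 0.34 in WT (edgeR adjusted p = 0.000621 and 0.000157). Among S3 markers, Aadat and Slc5a8 were the most like Gcm1, with r of 0.917 and 0.915. Of 20 markers that define kidney cell types 3 were tested, and Slc4a1, the anion exchanger of intercalated cells of the collecting duct, fell in both while Umod and Aqp2 were not called (median log2 difference -0.18 in KO and -0.32 in WT). Slc4a1 had r = 0.935 with Gcm1, at 4.63 to 12.2 CPM in KO I/R, 4.02 to 7.32 in WT I/R, 131 to 149 in KO sham and 98.2 to 244 in WT sham. Genes of injured or repairing tubule cells moved the other way: of 25 such genes 7 were tested, and 6 rose, 0 fell and 1 was not called in each comparison (median log2 difference 3.89 in KO and 4.15 in WT), where 11.9% and 10.2% of all tested genes were called higher. Havcr1, the kidney injury molecule gene, was higher by 6.499 ± 1.54 in KO and 8.53 ± 1.69 in WT, and Lcn2, which encodes a secreted iron-siderophore binder, by 7.91 ± 1.10 and 8.71 ± 1.14 (edgeR adjusted p at most 0.0108). Without KO sham 1, the library with raised injury markers, the KO values were 11.60 for Havcr1 and 9.9997 for Lcn2, and without WT sham 3 that of Havcr1 in WT was 9.35. Lcn2 in KO was at 7.27 without KO I/R 2. Clu, Gdf15 and Krt19 of the same list were higher by 3.89 ± 0.38, 3.70 ± 0.69 and 3.38 ± 0.52 in KO. In WT they were higher by 3.34 ± 0.37, 4.15 ± 0.71 and 4.09 ± 0.53 (edgeR adjusted p at most 0.00357 in both). In KO, Gdf15 was at 5.39 without KO sham 1 and Krt19 at 2.54 without KO I/R 2. The summed injury markers were at 21456 to 43669 CPM in KO I/R, 21259 to 29297 in WT I/R, 749 to 1669 in KO sham and 1025 to 1634 in WT sham. The r values above mainly follow the split into I/R and sham libraries. As a correlation of deviations from the group means, r with Gcm1 was 0.315 for Aadat, 0.119 for Slc5a8, 0.290 for Slc4a1 and 0.675 for Aqp1. Over the S3 markers it ran from -0.445 for Slc22a30 to 0.836 for Slc7a12. Between I/R and sham, Gcm1 was thus lower together with markers of more than 1 segment. Which cells held the Gcm1 reads was not tested.

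Other transcription factors are set beside Gcm1 as a description only, since Gcm1 was selected on its values in these groups. Of 30 factors known to be induced in injured kidney 6 were tested, and 2 rose, 0 fell and 4 were not called in KO and likewise in WT (median log2 difference 1.02 in KO and 1.14 in WT), where 11.9% and 10.2% of all tested genes were called higher. Sox9, a factor of repairing tubule cells, was higher by 4.29 ± 0.43 in KO and 4.79 ± 0.45 in WT on the log2 scale (edgeR adjusted p = 0.000129 and 9.55e-05), and by 4.95 in KO without KO sham 1. Its mean FPKM was 7.93 in KO I/R, 5.76 in WT I/R, 0.360 in KO sham and 0.185 in WT sham, so that per length Sox9 was above Gcm1 after I/R and below it in sham, where Gcm1 averaged 0.774 ± 0.633 in KO and 0.753 ± 0.339 in WT (SD, n = 3). Stat3, which carries cytokine signals, was higher by 1.09 ± 0.32 in KO and 0.97 ± 0.32 in WT (edgeR adjusted p = 0.0296 and 0.0490). Its call was lost when any 1 of 4 libraries was left out in KO (0.0602 to 0.0985; KO I/R 1, KO I/R 3, KO sham 2 and KO sham 3) and of 9 in WT (0.0566 to 0.147; all but KO I/R 2, KO sham 1 and KO sham 3).

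Of 30 factors of the kidney epithelium 7 were tested, 0 rose, and 1 fell in KO and 2 in WT (median log2 difference -0.61 in KO and -0.75 in WT), where 11.5% and 10.7% of all tested genes were called lower. Sim2 was lower in both, at -1.66 ± 0.28 in KO (edgeR adjusted p = 0.00228) and -1.002 ± 0.28 in WT (edgeR adjusted p = 0.0245), and Irx1, a factor of nephron patterning, was lower in WT, at -1.48 ± 0.43 (edgeR adjusted p = 0.0298). In KO, Irx1 was at -0.51 ± 0.42 and not called (edgeR adjusted p = 0.404). In WT both calls were lost when any 1 WT I/R library or WT sham 3 was left out, and for Irx1 also without WT sham 2 (0.0526 to 0.119 for Sim2 and 0.0767 to 0.112 for Irx1). In KO the Sim2 call was lost without both KO sham 1 and KO sham 3 (edgeR adjusted p = 0.0513). Among all factors tested from these lists the lowest log2 difference was -1.66, that of Sim2 in KO, beside -3.83 for Gcm1 in KO. Nothing is read from this either, since Gcm1 was selected on its values.

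**Figure D3:**
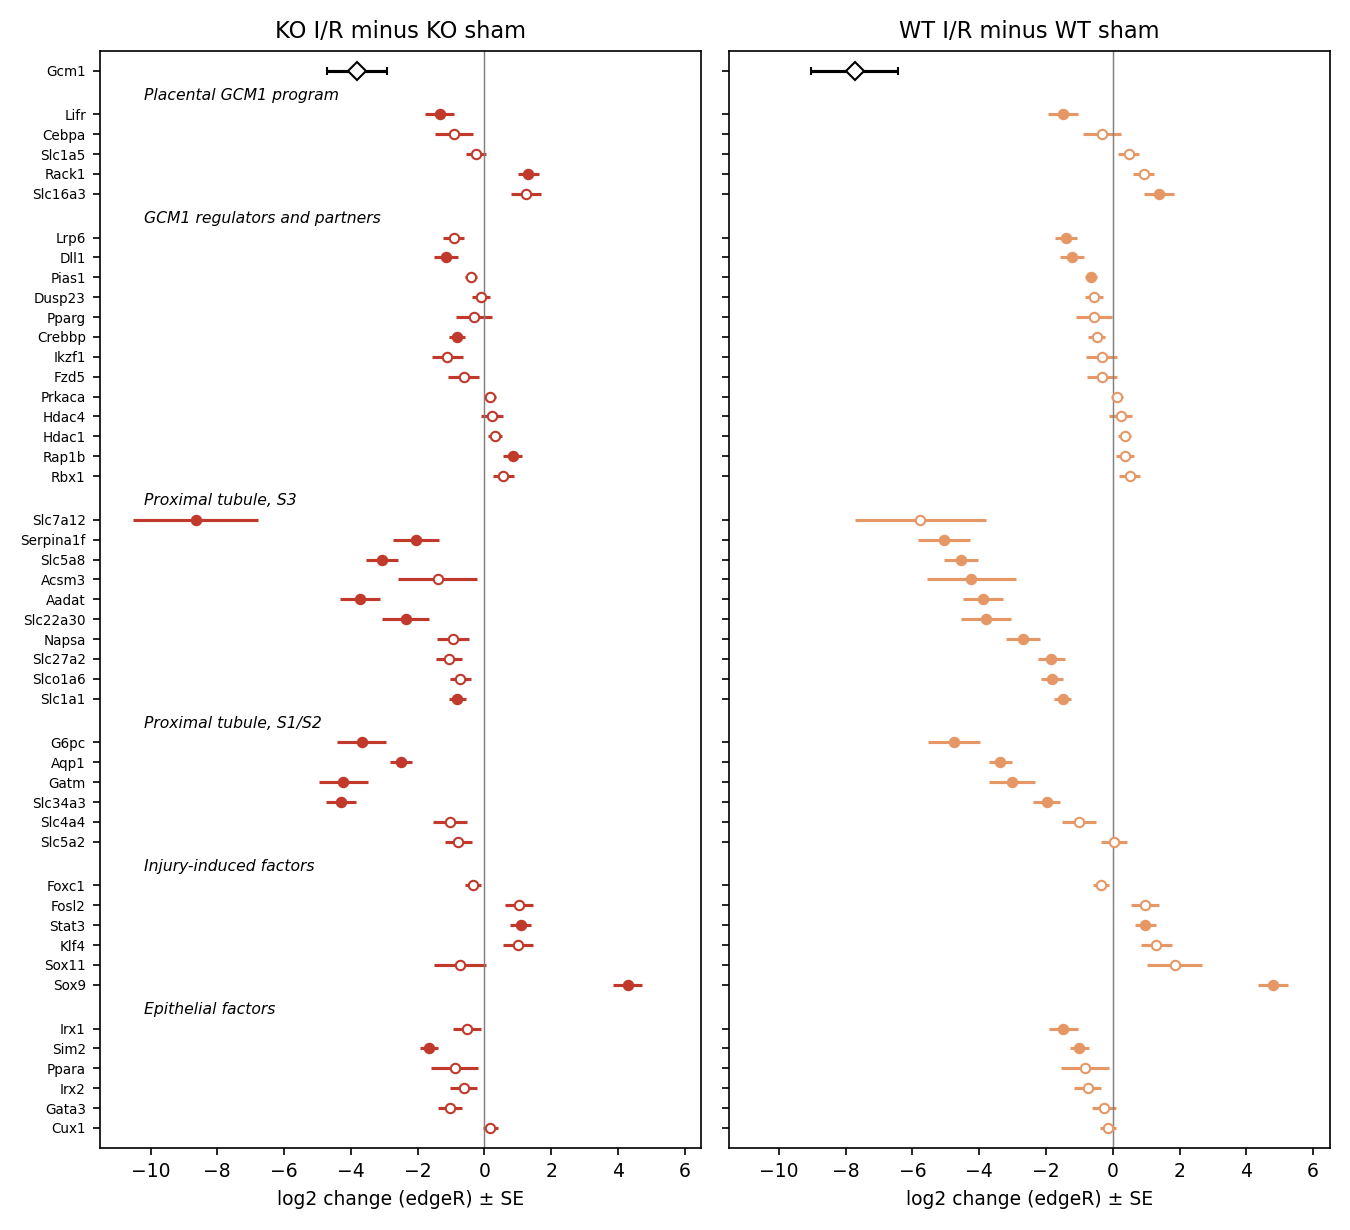
Log2 difference ± SE (x axis, edgeR) of Gcm1 (open diamond, description only) and of tested genes of 6 lists (rows), KO I/R minus KO sham at left and WT I/R minus WT sham at right; filled circles passed an adjusted p under 0.05. The Gcm1 value in WT and its SE depend on the prior count, since WT I/R holds 0 reads.

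On chromosome 9, 17 other genes of the table lie within 500 kb of Gcm1, 7 of them coding, and none overlaps it, so no other gene of the table shares its reads by position. Of the 7 neighbours tested, 3 rose and 0 fell in each I/R comparison, the reverse of the direction of Gcm1, where 11.9% of all tested genes were called higher in KO and 10.2% in WT. They were Rn7sk (109.7 kb away; 1.72 ± 0.56 in KO, 2.71 ± 0.58 in WT), the 7SK RNA that holds back transcription elongation, Gsta1 (165.0 kb; 3.39 ± 0.64 and 3.98 ± 0.66), a glutathione transferase, and Gm3776 (191.5 kb; 5.22 ± 0.65 and 6.73 ± 0.70). Gsta1 and Gm3776 are closely related copies, so reads may be split between them, and without KO sham 1 their KO values were 4.36 and 6.54. Rn7sk lost its KO call (edgeR adjusted p = 0.0429) when any 1 of 9 libraries was left out (0.0515 to 0.191; all but KO I/R 3, KO sham 3 and WT sham 2). Fbxo9, an F-box protein gene and the nearest tested neighbour at 15.9 kb, had log2 differences of -0.59 ± 0.38 in KO and -0.99 ± 0.39 in WT (edgeR adjusted p = 0.285 and 0.0867). Without KO sham 3 it passed the threshold in both (edgeR adjusted p = 0.0150 in KO and 0.00792 in WT). The Fbxo9 differences were smaller than those of Gcm1, which was selected on its values. Cilk1 at 43.6 kb, Eef1a1 at 412.8 kb and Klhl31 at -391.8 kb, on the other side, were not called by edgeR, while DESeq2 and limma called Eef1a1 higher in KO (adjusted p = 0.00416 and 0.0426), as did edgeR with the reads of KO I/R 2 recovered (0.0462). The 3 neighbours called higher lie on the side of Gcm1 towards higher coordinates. So do Fbxo9, Cilk1 and Eef1a1, and Klhl31 is the only tested neighbour on the other side, so no pattern by side can be read.

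**Figure D4:**
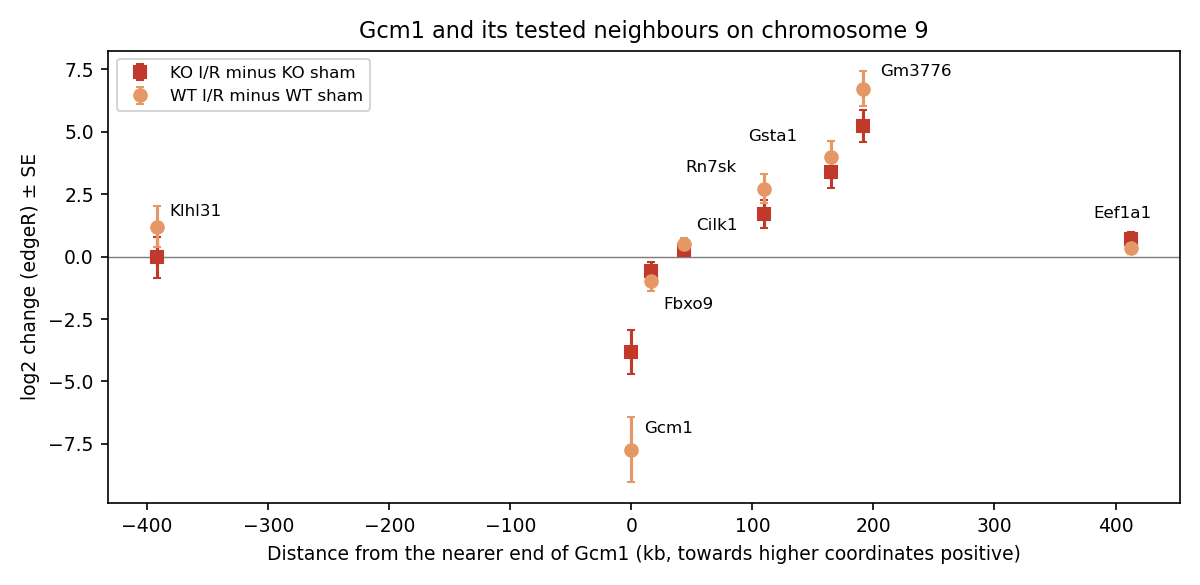
Log2 difference ± SE (y axis, edgeR) of Gcm1 and its 7 tested neighbours against the distance from the nearer end of Gcm1 (x axis, kb), KO I/R minus KO sham as squares and WT I/R minus WT sham as circles. Gcm1 is the lowest in both, and Rn7sk, Gsta1 and Gm3776 lie above 0.

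Markers of other tissues and cells were measured beside Gcm1. Thymus, the other adult organ known to transcribe mouse Gcm1, was represented by 5 of 10 markers in the table, each with counts in at least 1 of the 12 libraries. Their summed level was 0.740 to 2.17 CPM in KO I/R, 1.10 to 3.46 in WT I/R, 3.87 to 11.8 in KO sham and 4.13 to 4.81 in WT sham. The sum was lower in I/R, as Gcm1 was, but the 5 markers did not move together. Foxn1 went the other way, with 4, 3 and 2 counts in KO I/R libraries and 7, 4 and 5 in WT I/R libraries. In sham it had 0, 0 and 2 counts in KO libraries and 0, 0 and 0 in WT libraries. The only 1 of the 5 markers that could be tested was the T cell gene Cd8a, which was lower after I/R, at -3.96 ± 0.82 in KO and -2.53 ± 0.75 in WT (edgeR adjusted p = 0.00606 and 0.0328). In sham, Cd8a averaged 5.74 CPM in KO and 3.59 in WT. The WT call of Cd8a was lost without any 1 of the 6 WT libraries (0.0607 to 0.129), and its KO call without both KO sham 1 and KO sham 3 (edgeR adjusted p = 0.124). Markers of blood, immune, fat and adrenal cells, 15 of 25 in the table, summed to 780 to 6093 CPM in KO I/R, 1730 to 2251 in WT I/R, 1155 to 6307 in KO sham and 699 to 3010 in WT sham, and these ranges overlapped. Of the 12 tested, 3 rose, 4 fell and 5 were not called in KO (median log2 difference -0.60), and 3 rose, 2 fell and 7 were not called in WT (-0.22), beside 23.5% and 20.9% of all tested genes called in either direction. The neutrophil and myeloid genes Mmp8 (4.29 ± 1.05 in KO, 5.63 ± 1.20 in WT), Itgam (3.41 ± 0.60 and 2.99 ± 0.57) and Csf3r (2.35 ± 0.65 and 3.04 ± 0.67) rose where Gcm1 was lower, and the macrophage receptor gene Csf1r fell (-1.76 ± 0.31 and -1.65 ± 0.31). The lymphocyte genes Cd79a (-2.24 ± 0.61) and Cd4 (-2.02 ± 0.51) fell in KO (edgeR adjusted p = 0.0211 and 0.0148). They were not called in WT (-0.08 ± 0.63 and -0.86 ± 0.45). Without KO sham 1 both lost the KO call (edgeR adjusted p = 0.0752 and 0.0540), and Cd79a also lost it without KO I/R 2 or KO I/R 3. Mmp8 moved with single libraries, between 3.61 without KO sham 1 and 7.61 without KO sham 3 in KO, and stood at 4.88 without WT I/R 1 and 7.55 without WT sham 2 in WT. Csf3r was at 4.21 in WT without WT sham 2 and lost its KO call without KO I/R 2, KO sham 1 or KO sham 2 (edgeR adjusted p 0.0541 to 0.0684). The part of other tissue in the Gcm1 values was not tested.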

How the data were processed

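Kidney RNA was sequenced as paired-end libraries made with a TruSeq RNA kit, per the labels' protocols. The authors deposited 1 table of read counts per gene and FPKM per gene for all 12 libraries. HISAT2 and StringTie are named in the submitters' processing notes. Their versions, the build, the counting step and the strand setting were not given in the sources used here. Gene IDs of the table were in GENCODE release M21 (GRCm38) for 99.4% of genes.

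From the deposited counts, CPM was computed with TMM factors, log2 CPM with a prior count of 2, and all genes that passed edgeR's filter (minimum count 10, total 15) were fitted in 1 model of 4 group means with the quasi-likelihood test and Benjamini-Hochberg adjustment over the 5048 genes (R 4.3.3, edgeR 4.0.16). The SE printed with a log2 difference is its absolute value divided by the square root of the quasi-likelihood F statistic. The biological coefficient of variation was 0.375. The procedure was tested on simulated data. Intervals are exact Poisson at 95% and cover counting error only, since the reads carry no molecular identifiers; the floor is 3 counts. Alternatives were RLE and upper-quartile factors, table totals, no filter, a stricter filter of 5 CPM in 3 libraries, DESeq2 1.42.0, limma 3.58.1 on log2(FPKM + 0.1), only the groups compared, the replicate number as a block, and leaving out each library.

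Gcm1 and the gene lists were chosen with earlier results of these data known. The text names the 8 genes most like Gcm1, the 4 most opposite and the 6 most alike within groups, neighbours within 500 kb, called list members of largest change (up to 5 per list and comparison, or the 2 of smallest p), and Lrrk2, Havcr1 and Lcn2. Named beyond this rule, after their values were seen, are Umod, Aqp2, Fzd5, Prkaca, Cyp11b1, Cyp11a1, Star, Foxn1, Napsa, Cd4 and the 3 non-coding genes at 0 in WT I/R. The values of 1 tested list gene are not reported here. Chosen after seeing the data were 4 alternatives: reads recovered from FPKM for KO I/R 2 (whole, within 0.02 reads, for 100% of values under 200 reads), the omission of KO sham 1 and KO sham 3, both together, and whole-library totals with the recovered reads.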

Additional observations from a re-analysis of the deposited data

How the results depend on the processing

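Under the alternatives, 118 values of the Gcm1 differences moved by less than the spread between replicates (0.754 on the log2 scale) and 4 by more. Those 4 came from limma on log2(FPKM + 0.1), where Gcm1 differed by -2.24 in KO (I/R against sham), -3.00 in WT, 0.53 between the I/R groups and 0.76 in the interaction; a pseudocount compresses the folds of low genes. Leaving out single libraries gave -4.44 to -3.22 in KO and -8.04 to -7.50 in WT, -0.66 to 0.36 between sham groups, 3.22 to 4.35 between I/R groups and 3.28 to 4.48 in the interaction. The small sham difference was also above 0 with table totals (0.02) and whole-library totals (0.04). Fitting only KO I/R and KO sham, or only the I/R groups, gave no value for Gcm1, which the filter then removed.

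Counts of called genes, 1185 in KO and 1057 in WT, depended more on the processing. With only the groups compared they were 364 and 1995; without both KO sham 1 and KO sham 3 the KO count was 555, and with the reads of KO I/R 2 recovered as well the WT count was 2182. Leaving out single libraries gave 834 to 1367 in KO and 527 to 1425 in WT, with the WT count at 527, 551 and 651 without WT I/R 1, 2 and 3 and at 651 and 641 without WT sham 1 and 3. The split into higher and lower calls was 603 and 582 in KO and 517 and 540 in WT, against 610 and 377 and 579 and 363 with table totals, 816 and 457 and 925 and 427 with limma, and 871 and 468 in WT with whole-library totals, which moved the median log2 of all genes in WT to 0.10.

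Called members of the placental list, 2 in KO and 2 in WT, were 0 in KO with only the groups compared, 1 in KO without both KO sham libraries, 1 in WT with RLE factors and 4 in WT with recovered reads and both omissions, and 1 to 3 in KO and 0 to 3 in WT without single libraries. Of the regulators, 3 and 3 were called; with table totals 1 and 1, with no filter 0 and 1, with only the groups compared 0 and 5, without both KO sham libraries 0 in KO, with recovered reads and both omissions 6 in WT, and without single libraries 0 to 3 in both. The 6 S3 genes called in KO were 2 with only the groups compared and 3 to 6 without single libraries. Injury factors, 2 and 2, were 1 and 1 with table totals, 1 in WT with no filter, 4 in KO with limma, 1 in KO with only the groups compared, 4 in KO with recovered reads, 4 and 5 with recovered reads and both omissions, and 1 to 3 in both without single libraries. Epithelial factors, 1 and 2, were 0 in WT with table totals and with limma, 1 in WT with no filter and with whole-library totals, 2 in KO with DESeq2, with recovered reads and with recovered reads and both omissions, 0 in KO without both KO sham libraries, and 1 to 2 in KO and 0 to 2 in WT without single libraries. Of the 8 genes most like Gcm1, 1 remained by Spearman's rho.

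Replicate numbers did not pair the samples: over 12 same-numbered pairs the correlation of deviations ran from -0.370 to 0.246, and 3 were over 0.1. With the replicate number as a block, Gcm1 differed by -3.77 in KO and -7.77 in WT, 575 and 559 genes were called higher and lower in KO and 519 and 512 in WT, and the placental list had 1 called gene in KO and 0 in WT. Depth limits Gcm1 itself, with 0 to 3 reads per I/R library.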
